A study of Mus musculus with 6 samples.

Results

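The mitochondrial ribosomal protein genes were taken from the RNA-seq table of activated CD4+ T cells as the protein-coding rows whose symbol begins with *Mrpl* or *Mrps* followed by a number. The rule found 78 genes of 54525. It left out 5 processed pseudogenes with such names, and it used no measured value. Of the 78 genes, 51 encode proteins of the large subunit and 26 proteins of the small subunit. *Mrps30* and *Mrps18a* carry a small-subunit name and sit in the large subunit. *Mrps36* belongs to neither subunit, since its product is a component of the 2-oxoglutarate dehydrogenase complex.

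Mitochondria hold their own ribosome, which translates only the mRNAs of the mitochondrial genome, and these encode core subunits of the respiratory chain and of the ATP synthase. The ribosomal RNAs come from the mitochondrial genome, whereas every protein of the particle is encoded in the nucleus, made in the cytosol and imported. A set of these proteins descends from bacterial ribosomal proteins and the rest are particular to mitochondria. Activated T cells build up mitochondria as they leave the resting state.

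WT mice were of the strain C57BL/6N by the labels. *Abat* cKO mice were bred to lack *Abat*, which encodes the transaminase that begins the breakdown of γ-aminobutyrate, in T cells. The line was derived from a floxed allele by crosses to Flippase and *Cd4*-Cre strains, so Cre is under the *Cd4* promoter, and no littermate controls were named. Mice of both groups were 6 to 8 weeks old, and no other treatment was given. Naive CD4+ T cells from lymph nodes and spleen were activated for 36 h with IL-2 and plate-bound antibodies to CD3 and CD28, the TH0 condition, and 3 samples of each genotype were sequenced. Genotypes were activated and harvested separately and no batch was named, so culture, mouse line and genotype cannot be told apart. The study's legend calls the samples independent. In bulk RNA, fewer cells of a type and less RNA per cell cannot be told apart.

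The counts over genes summed to between 19566016 and 24396746 per sample. Reads on *Abat* were too few to check the labels, at 0 to 5 counts in WT and 2 to 7 in *Abat* cKO. CD4 T cell markers were present in every sample, and the 10 markers summed to 3367–3438 CPM (counts scaled to the library total after TMM scaling) in WT and 2843–2954 in *Abat* cKO, with 7 lower and 0 higher. The B cell markers summed to 239–261 CPM in WT and 99.1–103 in *Abat* cKO, with 5 of 6 tested lower. The CD8 T cell markers summed to 7.50–24.2 CPM in WT and 5.62–6.49 in *Abat* cKO, with both lower. The NK cell markers summed to 5.52–23.9 and 8.77–9.31 CPM, with 3 higher and 1 lower of 4 tested. The γδ T cell markers summed to 2.61–4.61 and 8.07–8.32 CPM, with both tested markers higher. The single myeloid marker tested did not pass, and that list summed to 3.02–3.92 and 2.86–4.36 CPM. No list had a marker at 0 in all samples. Deviations from the genotype means, correlated across genes, were most alike between WT replicate 3 and *Abat* cKO replicate 1 (r = 0.38), which had stood apart in an earlier look at these data. The part of these cell markers in the values that follow was not tested.

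Between WT and *Abat* cKO T cells, the mitochondrial ribosomal protein genes changed little. At an adjusted p of 0.05 in edgeR's quasi-likelihood test, 4 of the 77 tested were called higher, 9 lower and 64 neither. The 13 called made up 16.9% of the members tested, where 31.5% of all 13605 tested genes were called, 18.1% higher and 13.4% lower. The median log2 fold change, *Abat* cKO over WT, was -0.02 over the members and 0.00 over all tested genes. The members ran from -0.38 to 0.35, with 45 below and 32 above 0. Scaled by library size alone, 2 members were higher and 17 lower, and 32.5% of all tested genes were called. With that scaling the median log2 fold change was -0.05 over the members and -0.03 over all tested genes.

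The width of the intervals bears on how small the changes were. The 95% interval of the fold change lay within 1.2-fold in either direction for 55 of 77 members, against 31.5% of all tested genes, and within 1.5-fold for all 77, against 62.7%. Only *Mrps34* and *Mrpl47* had a fold change past 1.2, which 35.8% of all tested genes had. In a test against a 1.2-fold change, *Mrps34* alone passed, whereas 12.1% of all tested genes did. The median standard error was 0.056 on the log2 scale for the members and 0.077 for all tested genes. The spread between samples was also narrow, since the median coefficient of variation of a member was 3.84% in WT and 4.81% in *Abat* cKO. All samples of one genotype lay above all samples of the other for 9 members higher and 18 lower in *Abat* cKO. Over all tested genes the same held for 25.4% and 20.5%, which is the background for that count.

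**Figure D1:**
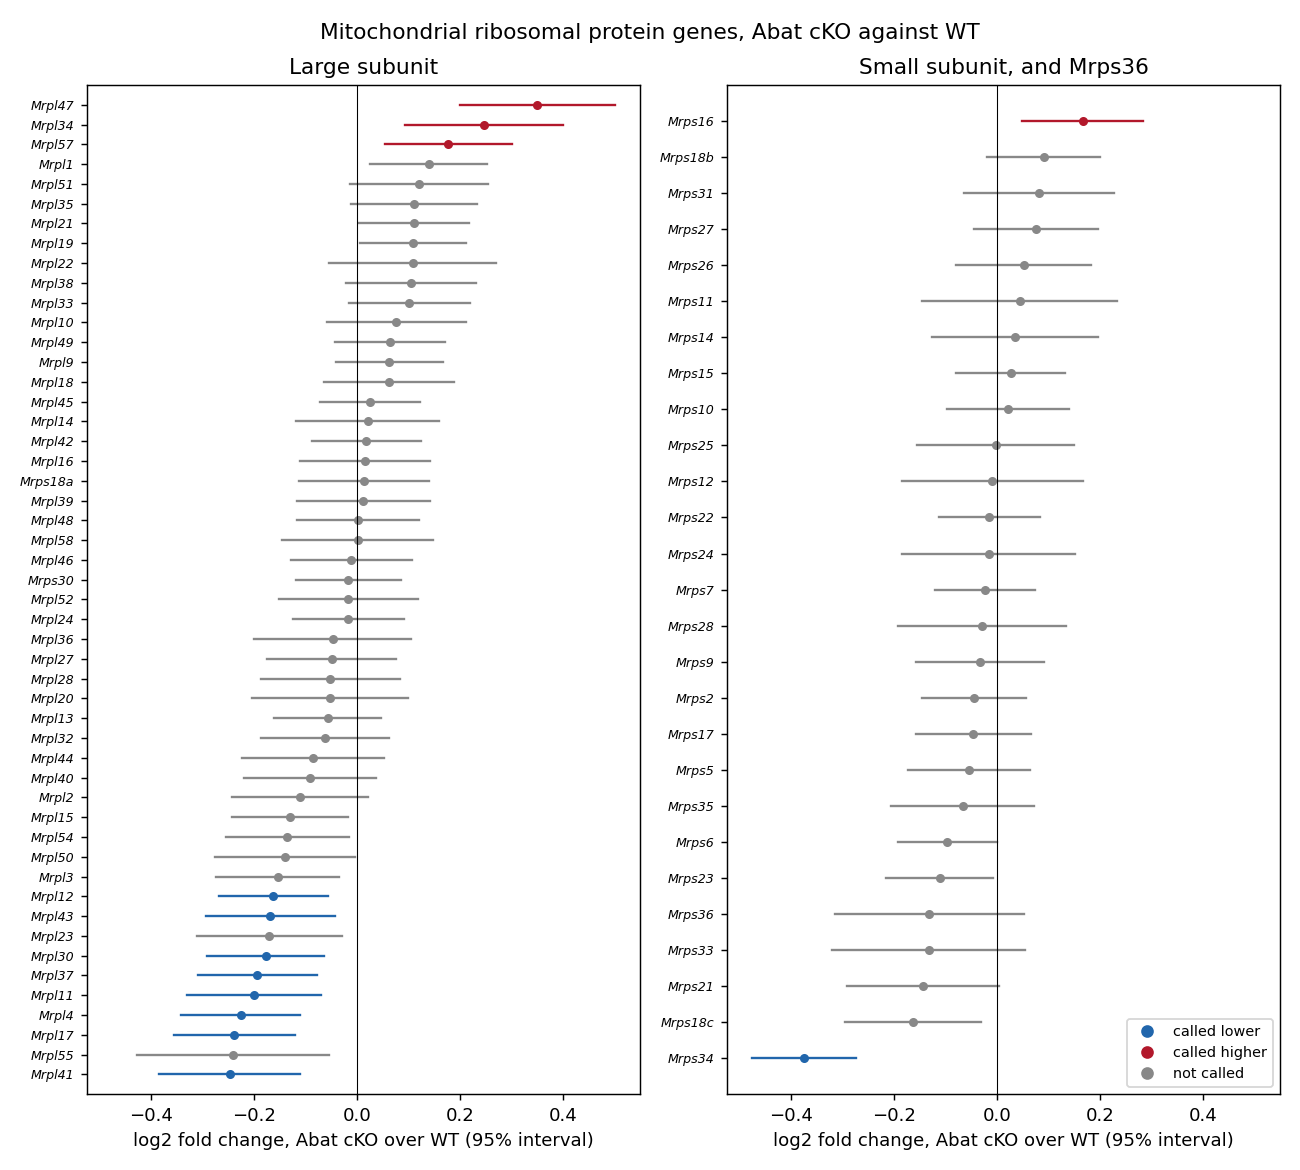
Log2 fold change of each tested mitochondrial ribosomal protein gene, *Abat* cKO over WT, with its 95% interval from edgeR (3 samples per genotype). Blue genes were called lower, red genes higher and grey genes not called, and all points lie between -0.38 and 0.35.

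The members as a class took a slightly smaller share of the reads in *Abat* cKO. They held 0.382%, 0.376% and 0.381% of all gene counts in the WT samples and 0.351%, 0.368% and 0.371% in the *Abat* cKO samples. The highest *Abat* cKO sample lay below the lowest WT sample. On the TMM-scaled counts that the test used, the genotypes overlapped: the members summed to 3811, 3741 and 3715 CPM in WT and to 3555, 3711 and 3774 CPM in *Abat* cKO. *Abat* cKO replicate 1 was the lowest on both scales. The ratio of large-subunit to small-subunit counts was 2.29, 2.30 and 2.29 in WT and 2.25, 2.33 and 2.31 in *Abat* cKO, and here too the genotypes overlapped.

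*Mrps34* fell furthest and was called under every setting tried. It encodes a protein particular to the mitochondrial small subunit that is needed in mice to keep the small ribosomal RNA and its subunit stable. The gene lies on the plus strand at chr17:24895116-24897502 (GRCm38). It was at 54.0, 55.4 and 53.2 CPM in WT and at 41.2, 42.7 and 41.4 CPM in *Abat* cKO. The 3 *Abat* cKO samples lay close together, well below every WT sample. *Mrps34* fell by 22.9%, a log2 fold change of -0.38 (95% interval -0.48 to -0.27, standard error 0.045, adjusted p = 0.000155). Its adjusted p ranged from 0.000275 to 0.00156 when each sample was left out in turn, and it was 0.00261 with scaling to the spike-in controls. The exons of *Mrps34* share 63.4% of their bases with *Mapk8ip3* on the opposite strand, and whether the counting used strand is not given in the sources used here. *Mapk8ip3*, which encodes a scaffold of JNK signalling, had a log2 fold change of -0.16 and did not pass (adjusted p = 0.0784).

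*Mrpl47* rose furthest. Its product is the uL29 protein, which sits beside the exit of the peptide tunnel in the large subunit. The gene lies on the minus strand at chr3:32725397-32737605. It was at 34.8, 35.3 and 30.5 CPM in WT and at 40.3, 43.3 and 44.8 CPM in *Abat* cKO. WT replicate 3 was the lowest sample, and the genotypes did not overlap. *Mrpl47* rose by 27.4%, a log2 fold change of 0.35 (95% interval 0.20 to 0.50, standard error 0.068, adjusted p = 0.00296). It passed in every fit that left out a sample, and its adjusted p was 0.0547 with scaling to the spike-in controls. *Actl6a* and *Ndufb5* on the opposite strand share 24.2% of its exon bases, and they had log2 fold changes of -0.10 and -0.09.

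*Mrpl4* and *Mrpl17* also line the peptide tunnel or its exit, and both fell. *Mrpl17* (chr7:105803206-105811099, minus strand) was at 60.7, 57.2 and 59.0 CPM in WT and at 47.0, 52.3 and 50.6 CPM in *Abat* cKO. Its log2 fold change was -0.24 (standard error 0.053, adjusted p = 0.00637.) *Mrpl4* (chr9:21002738-21008839, plus strand) was at 55.5, 52.9 and 56.2 CPM in WT and at 44.9, 49.4 and 46.3 CPM in *Abat* cKO. Every *Abat* cKO sample lay below every WT sample for both genes, and *Abat* cKO replicate 1 was the lowest. The log2 fold change of *Mrpl4* was -0.23 (standard error 0.052, adjusted p = 0.00776.) Of the 7 genes around the tunnel, *Mrpl47* was higher, *Mrpl4* and *Mrpl17* were lower, and *Mrpl22*, *Mrpl23*, *Mrpl24* and *Mrpl45* did not pass. Groups by place in the particle were arranged after the values were seen.

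The stalk of the large subunit recruits the translation factors. *Mrpl12*, the stalk protein itself, which also binds the mitochondrial RNA polymerase, was at 138, 140 and 129 CPM in WT and at 116, 124 and 124 CPM in *Abat* cKO. *Mrpl11*, of the stalk base, was at 46.6, 43.1 and 44.9 CPM in WT and at 36.5, 39.6 and 41.0 CPM in *Abat* cKO. The samples of each genotype stood apart for both genes. *Mrpl12* had a log2 fold change of -0.16 (standard error 0.047, adjusted p = 0.0249) and *Mrpl11* one of -0.20 (standard error 0.058, adjusted p = 0.0243). *Mrpl10*, which anchors the stalk, had 0.08 and did not pass (adjusted p = 0.387), and *Mrpl54* had -0.14 and did not pass (adjusted p = 0.0822). *Mrpl53*, the remaining protein of this group, had 0 counts in all 6 samples. A count of 0 allows up to 3 counts per library, for counting error only. Of its exon bases, 89.9% are shared with the other annotated genes *Ccdc142os* and *Gm42688*. These held 18 to 34 and 20 to 35 counts per sample. The 0 concerns counted reads and not the transcript, and the part of the shared bases in it was not tested.

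The other members that fell belong to the large subunit. *Mrpl41*, reported to bind Bcl-2 and p53, was at 36.4, 33.9 and 33.5 CPM in WT and at 27.5, 29.2 and 30.8 CPM in *Abat* cKO, which gave a log2 fold change of -0.25 (standard error 0.061, adjusted p = 0.0114). *Mrpl37*, particular to mitochondria, was at 69.7, 63.9 and 66.9 CPM in WT and at 55.6, 59.2 and 60.5 CPM in *Abat* cKO, which gave a log2 fold change of -0.19 (standard error 0.052, adjusted p = 0.0169). Neither gene overlapped between genotypes. *Mrpl30*, with a bacterial homolog, was at 73.3, 71.8 and 71.3 CPM in WT and at 60.9, 62.4 and 68.1 CPM in *Abat* cKO, which gave a log2 fold change of -0.18 (standard error 0.051, adjusted p = 0.0226). *Mrpl43*, particular to mitochondria, was at 44.3, 43.6 and 41.8 CPM in WT and at 36.5, 40.8 and 38.1 CPM in *Abat* cKO, which gave a log2 fold change of -0.17 (standard error 0.056, adjusted p = 0.0437). For *Mrpl43* the gap between the genotypes was narrow, and it was the called member nearest the threshold. *Twnk*, the mitochondrial DNA helicase gene on the opposite strand, shares 33.4% of the exon bases of *Mrpl43* and had a log2 fold change of 0.17. Just outside the threshold stood *Mrpl3*, whose protein reaches towards the peptidyl transferase centre, with a log2 fold change of -0.15 and an adjusted p of 0.0513.

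Besides *Mrpl47*, 3 members rose. *Mrpl34*, the small bL34 protein, was at 33.1, 31.2 and 33.0 CPM in WT and at 34.6, 40.9 and 39.9 CPM in *Abat* cKO, which gave a log2 fold change of 0.25 (standard error 0.069, adjusted p = 0.0202). *Mrpl57*, once named *Mrp63*, was at 29.4, 29.8 and 31.9 CPM in WT and at 34.3, 35.3 and 33.3 CPM in *Abat* cKO, which gave a log2 fold change of 0.18 (standard error 0.055, adjusted p = 0.0343). Neither overlapped between genotypes, though *Abat* cKO replicate 1 was close to the WT samples for *Mrpl34*. *Mrps16*, with a bacterial homolog, was the only small-subunit member that rose, from 37.9, 34.9 and 36.4 CPM in WT to 39.8, 40.5 and 42.1 CPM in *Abat* cKO. Its log2 fold change was 0.17 (standard error 0.052, adjusted p = 0.0359.)

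**Figure D2:**
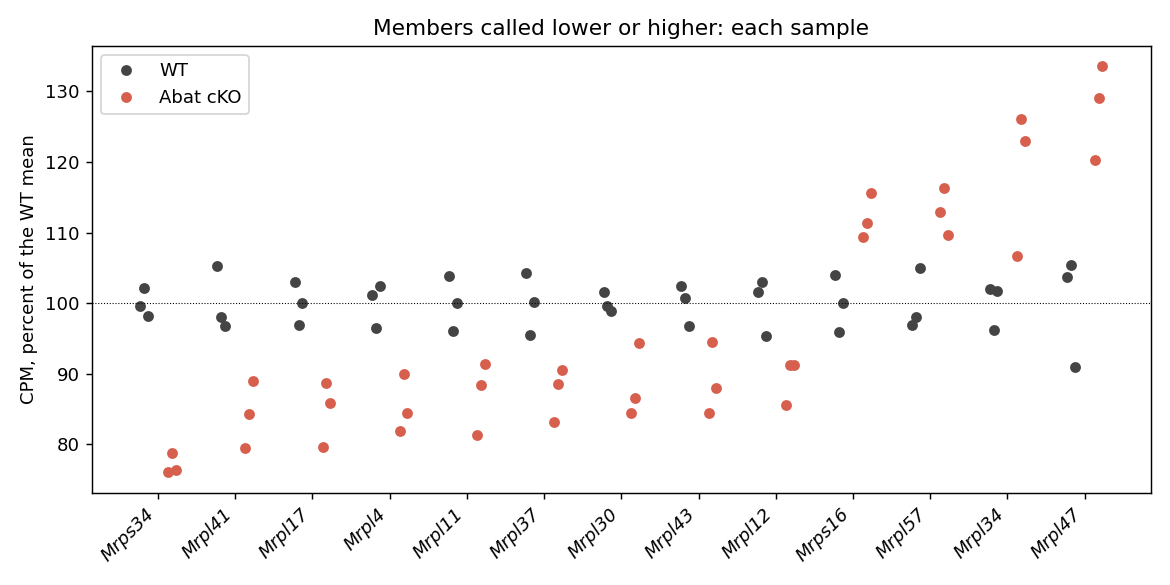
CPM of the 13 called members in each sample, as a percent of that gene's WT mean (3 WT samples in grey, 3 *Abat* cKO samples in red). No gene overlapped between genotypes, which is no separate support, since the genes were called on the same samples. The gap was widest for *Mrps34*, whose WT samples were at 53.2 to 55.4 CPM and *Abat* cKO samples at 41.2 to 42.7 CPM.

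The calls near the threshold depended on single samples, on scaling and on the test. Leaving out WT replicate 1 left 2 higher and 3 lower, with 23.2% of all tested genes called. Leaving out WT replicate 2, *Abat* cKO replicate 2 or *Abat* cKO replicate 3 left 1 higher each time. The members lower in these fits were 7, 6 and 11, with 23.2% to 24.6% of all tested genes called. Without WT replicate 3 and *Abat* cKO replicate 1 together, 7 were higher and 11 lower, and 37.6% of all tested genes were called. With scaling to the spike-in controls, 0 members were higher and 1, *Mrps34*, was lower, where 18.6% of all tested genes were called. Of the 13 called members, 4 passed in all 6 fits that left out 1 sample, namely *Mrps34*, *Mrpl4*, *Mrpl17* and *Mrpl47*. *Mrpl57* was called in 4 of the 17 alternatives and *Mrps16* in 5, and both were lost with library size alone, DESeq2's test, no filter on low counts and protein-coding genes alone.

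Both subunits were spread around no change. In the large subunit 3 genes rose, 8 fell and 39 passed neither way, so 22.0% of 50 were called. In the small subunit 1 rose, 1 fell and 24 passed neither way, or 7.69% of 26 called. Over all tested genes the share was 31.5%. The median log2 fold changes were -0.02 in both. Whether the shares differ between the subunits was not tested. Of 46 members with a bacterial homolog, 3 were higher and 5 were lower (17.4% called), and of 30 tested members particular to mitochondria, 1 was higher and 4 were lower (16.7% called).

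By place in the particle, calls fell on 3 of the 7 tunnel genes and on 2 of the 4 tested stalk genes described above, where 31.5% of all tested genes were called. The genes around the peptidyl transferase centre, where peptide bonds form (*Mrpl2*, *Mrpl3*, *Mrpl16* and *Mrpl27*), ran from -0.15 to 0.01, with 0 called of 4. The genes of the central protuberance, which contacts the tRNAs (*Mrpl18*, *Mrpl38*, *Mrpl40*, *Mrpl46* and *Mrpl48*), ran from -0.09 to 0.10, with 0 called of 5. *Mrps12*, of the decoding centre, had a log2 fold change of -0.01 (95% interval -0.19 to 0.17). *Mrps2*, with a bacterial homolog, had -0.04 (95% interval -0.15 to 0.06). These intervals, like those of all tested members, lay within 1.5-fold.

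The *Mrps18* paralogs occupy different places, *Mrps18a* in the large subunit and *Mrps18b* and *Mrps18c* in the small. Their log2 fold changes were 0.01, 0.09 and -0.16, and none passed, with *Mrps18c* nearest (adjusted p = 0.0594). *Mrpl58*, a peptidyl-tRNA hydrolase that rescues stalled ribosomes, had a log2 fold change of 0.00 (95% interval -0.15 to 0.15). *Mrpl44*, which has a fold like that of ribonuclease III, had -0.09 (95% interval -0.22 to 0.05). *Mrps27*, a pentatricopeptide repeat protein, had 0.08 (95% interval -0.04 to 0.20). *Mrps30* had -0.02 (95% interval -0.12 to 0.09), and *Mrps36* of the dehydrogenase complex had -0.13 (95% interval -0.32 to 0.05).

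Levels within the class were compared per length, as TPM, that is, counts over the length of the merged exons of each gene, scaled to the same total in every sample. The tested members had a median of 63.0 TPM, with quartiles at 36.0 and 85.1, and 73 of 77 lay above 17.7 TPM, the median of all tested genes. The median was 64.9 TPM in the large subunit and 50.4 TPM in the small subunit. *Mrpl12* was highest at 265 ± 22.3 TPM (SD, n = 6), followed by *Mrpl18* at 237 ± 10.6 and *Mrpl34* at 184 ± 17.3. *Mrpl18* encodes the uL18 protein of the central protuberance. The ranges of *Mrpl12* (239.5–292) and *Mrpl18* (221–251) overlapped over the 6 samples, which include both genotypes. *Mrpl12* averaged 285 TPM in WT and 246 TPM in *Abat* cKO. Within each sample, *Mrpl12* lay above *Mrpl18*, and *Mrpl18* lay above *Mrpl34* (165–210).

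The lowest members were *Mrps35* at 12.5 ± 0.945 TPM, *Mrps25* at 14.7 ± 0.968 and *Mrpl48* at 16.9 ± 0.556 (SD, n = 6). *Mrps35* and *Mrps25* are particular to the mitochondrial small subunit. Their ranges of 11–13.9 and 13.4–16.2 overlapped, as did that of *Mrps25* with that of *Mrpl48* (15.9–17.3). Within each sample, by merged exons, *Mrps35* lay below *Mrps25* and *Mrps25* below *Mrpl48*. The order depended on the length used. *Mrpl34* ranked 3 by merged exons and 7 by the length given in the deposited table, while *Mrpl12* and *Mrpl18* ranked 1 and 2 by both. At the low end, *Mrps35* ranked 77 and *Mrps25* 76 by merged exons, and they changed places by the table's length. *Mrpl48* moved from rank 75 to 73, and *Mrpl17* moved from 70 to 75.

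**Figure D3:**
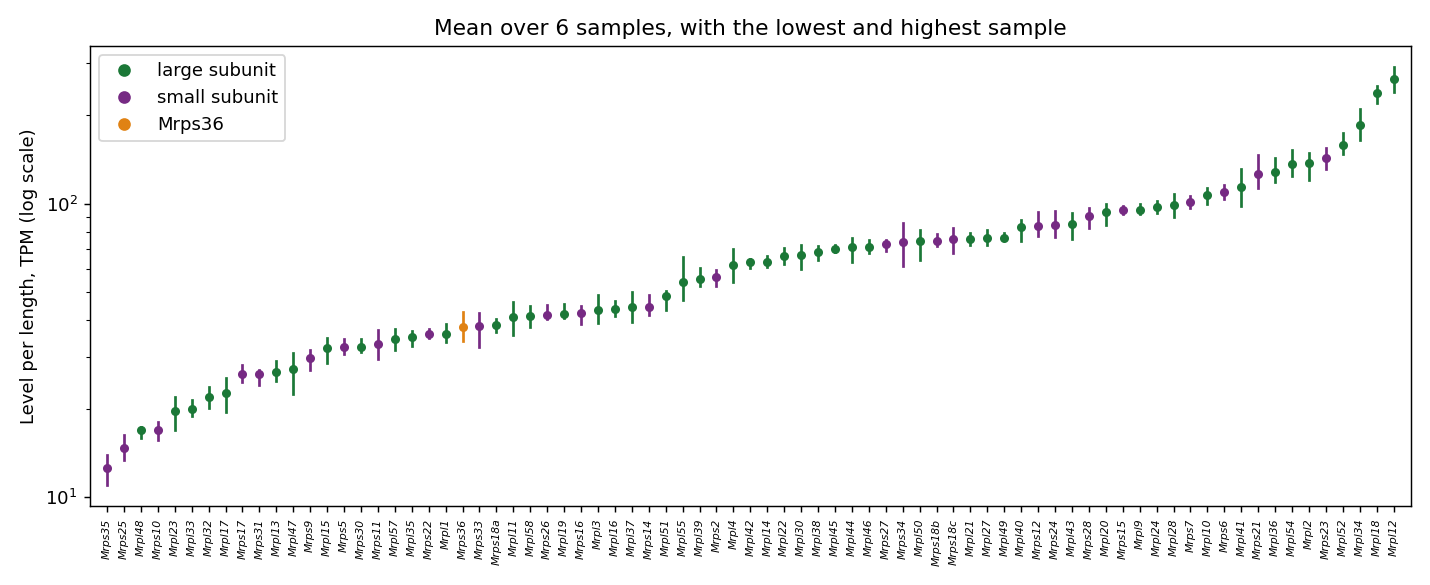
Level per length of each tested member in TPM on a log scale, as the mean over 6 samples (point) with the lowest and highest sample (bar), coloured by subunit. Levels ran from 12.5 TPM for *Mrps35* to 265 TPM for *Mrpl12*.

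The genes lie on 17 chromosomes, with 11 on chromosome 11, 8 on chromosome 17 and 7 on chromosome 6. In 24 of 78, exons share bases with another counted gene. Of the 23 tested among these, 1 was higher and 2 were lower (13.0% called), and of the 54 with no such overlap, 3 were higher and 7 were lower (18.5% called). Both shares stand beside 31.5% of all tested genes. *Mrps34* and *Mrpl47*, the only members with a fold change past 1.2, were both among the 23 with overlap. The part of shared exon bases in their counts was not tested.

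For 18 tested members, a tested protein-coding gene on the opposite strand starts within 1000 bases upstream or 100 bases downstream of the member's start, and the nearest such gene was taken as its divergent partner. This arrangement was looked at after the values were seen. Among them 5 members were called, and 3 of these had a partner called the same way, against 0 with a partner called the other way. Over all tested protein-coding genes, 1205 had such a partner. Of the 356 called among these, 30.9% had a partner called the same way and 5.62% one called the other way.

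*Eme2*, which encodes a partner of the endonuclease Mus81, starts 29 bases from *Mrps34*. *Eme2* was at 15.5, 13.9 and 16 CPM in WT and at 10.5, 9.83 and 10.7 CPM in *Abat* cKO, which gave a log2 fold change of -0.55 (standard error 0.084, adjusted p = 0.000668). *Mitd1*, which acts in the abscission of dividing cells, starts 66 bases from *Mrpl30*. *Mitd1* was at 17.0, 16.4 and 16.7 CPM in WT and at 10.8, 9.78 and 11.1 CPM in *Abat* cKO, which gave a log2 fold change of -0.66 (standard error 0.076, adjusted p = 0.000116). Both partners, like the member beside them, were lower in every *Abat* cKO sample than in any WT sample. *Ska3*, a spindle and kinetochore gene 49 bases from *Mrpl57*, was at 18.9, 17.8 and 19.6 CPM in WT and at 24.6, 27.1 and 27.0 CPM in *Abat* cKO. It rose with *Mrpl57*, with a log2 fold change of 0.48 (standard error 0.067, adjusted p = 0.000358).

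In other pairs the partner changed and the member was not called. This held for 3 of the 13 members with a partner that were not called, or 23.1%. Among all tested protein-coding genes with a partner, the same share was 26.5%. *Ncapd2*, a condensin subunit gene 100 bases from *Mrpl51*, had a log2 fold change of 0.75 (adjusted p = 4.28e-07), while *Mrpl51* had 0.12 and did not pass (adjusted p = 0.164). *Apba3*, an adaptor protein gene 26 bases from *Mrpl54*, had 0.35 (adjusted p = 0.00306), against -0.14 for *Mrpl54*. *Psma2*, a proteasome subunit gene 75 bases from *Mrpl32*, had -0.18 (adjusted p = 0.0139), against -0.06 for *Mrpl32* (adjusted p = 0.446).

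**Figure D4:**
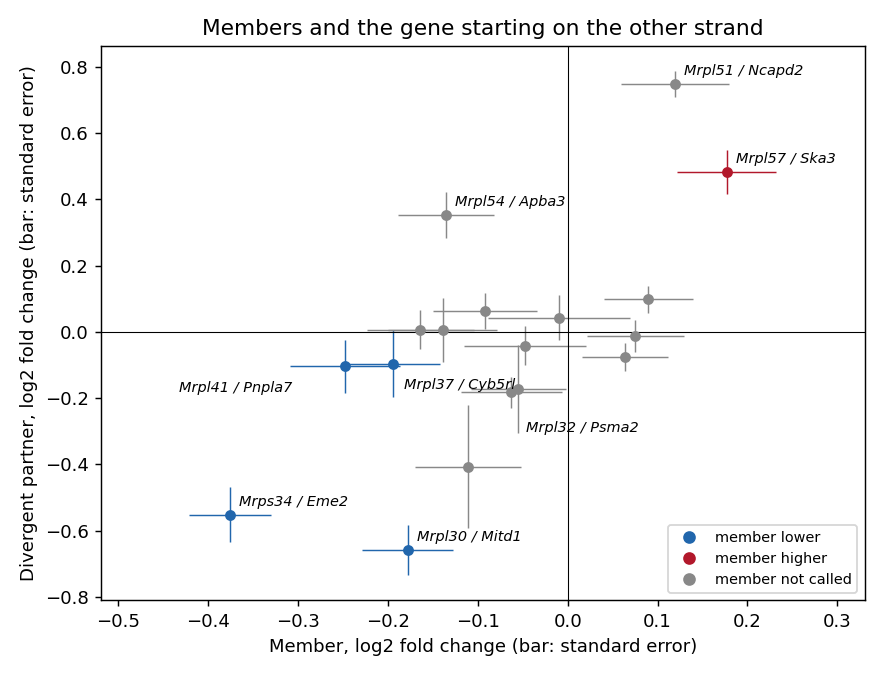
Log2 fold change (*Abat* cKO over WT) of each of the 18 members with a divergent partner, against that of the partner, with standard errors as bars and colours for the call of the member. *Mrps34* with *Eme2* and *Mrpl30* with *Mitd1* lie at the lower left, and *Mrpl57* with *Ska3* at the upper right.

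Genes of nuclear-encoded mitochondrial proteins often carry binding motifs of ETS factors, NRF1 and YY1 near their start. Promoter windows from 250 bases before to 50 bases after the start, from RefSeq on GRCm38.p6, matched 69 of the 78 genes by symbol. The ETS letters CCGGAAG, on either strand, were in 34.7% of 75 member windows and in 8.86% of all 32851 windows of that length. The NRF1 letters, GCGCA followed by any base and GCGC, were in 17.3% of member windows and in 4.60% of all. The YY1 letters AANATGGCG were in 14.7% and 2.38%. All windows include those of genes not expressed in these cells, and 3 members had more than 1 window. The shares were not compared with those of tested genes alone. A match of letters is no evidence of binding, and the motifs do not overlap each other in the windows printed here. In total 42 members held at least 1 of the motifs.

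Calls of members with and without these letters are given beside the 18.1% of all tested genes that were higher and the 13.4% that were lower. Of 25 tested members with the ETS letters 3 were higher and 2 were lower, and of 43 without 1 was higher and 5 were lower. Of 13 with the NRF1 letters 1 was higher and 3 were lower, and of 55 without 3 were higher and 4 were lower. Of 11 with the YY1 letters 0 were higher and 1 was lower, and of 57 without 4 were higher and 6 were lower. The counts are small, and no difference between them was tested. The 250 bases before the start are shown for *Mrpl17*, which fell, and for *Mrpl47* and *Mrpl34*, the members that rose furthest, 5′ to 3′ on the strand of the gene, with the NRF1 and ETS letters in capitals. *Mrpl17* (chr7:105811088-105811337) holds 1 NRF1 and 1 ETS match, *Mrpl34* (chr8:71464676-71464925) 1 ETS match and *Mrpl47* (chr3:32736756-32737005) 0 of either. The stretch for *Mrpl47* lies inside the gene span given above (chr3:32725397-32737605), since RefSeq places the start further downstream. Its 0 matches hold for the RefSeq start only. Divergent partners were sought from the start of the gene span instead.
Mrpl17: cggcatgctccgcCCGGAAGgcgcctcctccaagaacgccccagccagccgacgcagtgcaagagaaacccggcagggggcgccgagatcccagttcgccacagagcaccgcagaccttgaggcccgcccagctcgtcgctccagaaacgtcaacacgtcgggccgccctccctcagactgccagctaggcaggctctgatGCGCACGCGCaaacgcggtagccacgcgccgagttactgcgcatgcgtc
Mrpl34: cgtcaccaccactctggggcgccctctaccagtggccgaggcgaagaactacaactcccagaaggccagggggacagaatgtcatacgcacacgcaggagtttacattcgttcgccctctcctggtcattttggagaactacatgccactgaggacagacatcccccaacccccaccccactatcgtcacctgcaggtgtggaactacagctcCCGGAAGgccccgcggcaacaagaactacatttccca
Mrpl47: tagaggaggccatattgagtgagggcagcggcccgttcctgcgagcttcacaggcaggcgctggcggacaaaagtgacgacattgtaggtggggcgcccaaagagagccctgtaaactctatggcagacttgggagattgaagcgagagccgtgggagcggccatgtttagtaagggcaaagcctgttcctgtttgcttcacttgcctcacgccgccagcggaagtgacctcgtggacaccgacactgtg

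Genes that work with the mitochondrial ribosome were compared by lists. The ribosomal proteins outside the *Mrpl* and *Mrps* names, *Dap3*, *Ptcd3*, *Chchd1*, *Aurkaip1* and *Gadd45gip1*, had log2 fold changes of 0.06, -0.09, 0.03, -0.03 and -0.03, and 0 of 5 were called. Of 21 genes of ribosome assembly 2 were higher and 5 were lower, or 33.3% called, near the 31.5% of all tested genes. *Noa1*, a GTPase gene, had a log2 fold change of -0.26 (adjusted p = 0.00612), and *Tfb1m*, which methylates the small ribosomal RNA, one of -0.31 (adjusted p = 0.00715). *Mtg2*, a GTPase of the large subunit, had -0.22 (adjusted p = 0.0206), and *Ngrn*, which acts on the large ribosomal RNA, had 0.21 (adjusted p = 0.0249).

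Of 16 translation factors 0 were higher and 2 were lower, or 12.5% called, against 31.5% of all tested genes. *Tufm*, the elongation factor that brings tRNAs to the ribosome, was at 147, 150 and 139 CPM in WT and at 109, 111 and 118 CPM in *Abat* cKO, with the genotypes well apart. Its log2 fold change was -0.37 (standard error 0.048, adjusted p = 0.000258), close in size to that of *Mrps34*. *Guf1*, the mitochondrial homolog of the bacterial factor LepA, had -0.23 (adjusted p = 0.0124). The release factor gene *Mtrf1l* had -0.17 and *Taco1*, an activator of *mt-Co1* translation, had 0.11, and neither passed (adjusted p = 0.113 and 0.380).

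Of 15 tested genes of mitochondrial transcription and its nuclear regulators 1 was higher and 1 was lower, or 13.3% called. *Tfb2m*, a factor that starts mitochondrial transcription, had a log2 fold change of -0.21 (adjusted p = 0.0168). *Nrf1*, whose product binds the NRF1 letters above, had 0.19 (adjusted p = 0.0219), and *Myc*, a driver of ribosome production, had 0.20 and did not pass (adjusted p = 0.0714). Of 10 tested mRNAs of the mitochondrial genome 0 were higher and 2 were lower (20% called), *mt-Nd1* at -0.25 (adjusted p = 0.00187) and *mt-Nd2* at -0.18 (adjusted p = 0.0154). *mt-Nd6* had 0.18 and did not pass (adjusted p = 0.385). Counts of these mRNAs were very uneven, at 26 to 41 per sample for *mt-Co2* and 48977 to 75174 for *mt-Co1*. *mt-Nd3*, *mt-Nd4l* and *mt-Atp8* had too few counts to be tested. Only 1 of the 10 intervals lay within 1.2-fold, and the median standard error was 0.109, so this list was measured less closely than the members.

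Gene classes of similar kind had similar medians. Of 75 nuclear genes of the respiratory chain and ATP synthase 3 were higher and 6 were lower, or 12.0%, with a median log2 fold change of -0.01. Of 93 tested genes named *Rpl* or *Rps*, a name rule that also takes kinases named *Rps6k*, 3 were higher and 7 were lower, or 10.8%, with a median of -0.03. The mitochondrial ribosomal protein genes, at 16.9% and -0.02, lay near both classes, and the differences between these classes were not tested.

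**Figure D5:**
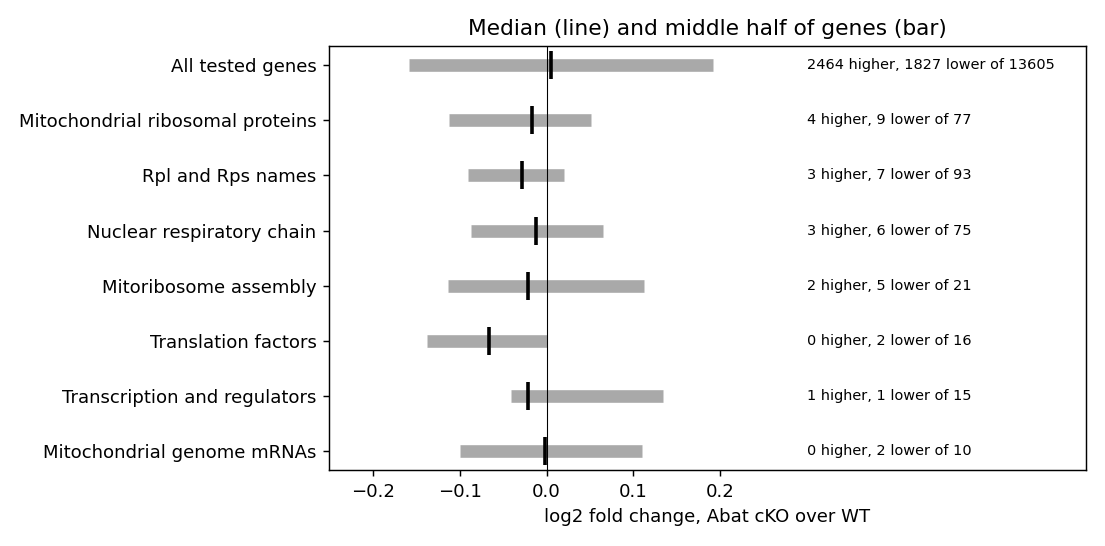
Log2 fold change (*Abat* cKO over WT) of the mitochondrial ribosomal protein genes beside all tested genes and related lists, as the median (line) and the range between the quartiles (bar), with the counts called higher and lower. The members' median was -0.02, with 4 higher and 9 lower of 77.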

How the data were processed

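RNA of 3 WT and 3 *Abat* cKO samples was sequenced by the authors, who deposited whole-number raw counts per gene, which were used in all tests. The deposited normalized counts, a signal given by raw counts over a size factor for each sample, were only checked against the raw counts of 77 members. The authors' group means, log2 fold change and adjusted p-value were not used. The study's methods name TopHat2 and HTSeq, and the submitters' processing notes name Trim Galore 0.60, STAR 2.7, RSEM 1.31 and the builds mm10 and hg19, so the source of the counts is not settled.

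Counts were fitted with edgeR 4.0.16 in R 4.3.3 for genotype alone, with TMM scaling, its filter on low counts and Benjamini-Hochberg adjustment over 13605 genes. The 92 spike-in controls, 0.817% to 1.00% of counts, were left out. The test was checked on simulated counts. TPM used merged exons of the GENCODE annotation of GRCm38, matched for 99.9% of genes. The 95% intervals are of the fitted fold change. P-values set the genotype difference against the spread between 3 samples per genotype, with edgeR's variance estimates drawing on all tested genes.

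Members and lists were chosen with earlier results of these data known. Members named are the 10 largest called increases and decreases, the 3 highest and 3 lowest levels, those beside the threshold and those of particular role. Each list gives up to 3 genes, taken by adjusted p, and 1 that went the opposite way. Overlapping and divergent genes were named after their values were seen. Alternatives were other scalings and filters, DESeq2 1.42.0, a replicate block, left-out samples, an adjusted p of 0.01, a test against 1.2-fold and protein-coding genes alone.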

Additional observations from a re-analysis of the deposited data

How the results depend on the processing

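No called member reversed under any alternative tried, and *Mrps34* was called in all 17. Among named genes not called, the sign changed in 41 of the 816 gene and setting pairs examined for all named genes. The reported fit gave 4 higher, 9 lower and a median of -0.02 on the log2 scale. Library size alone gave 2 higher, 17 lower and a median of -0.0517. Spike-in scaling gave 0 higher, 1 lower and a median of -0.0634, with *Mrps34* the only call. The median of all tested genes moved as well, from 0.0046 in the reported fit to -0.0296 with library size alone and -0.0415 with spike-in scaling. DESeq2's test gave 2 higher and 8 lower, and the fit with no filter on low counts gave 2 higher and 10 lower. Protein-coding genes alone gave 2 higher and 16 lower. A test against 1.2-fold gave 0 higher and 1 lower, and an adjusted p under 0.01 gave 1 higher and 3 lower. Leaving out 1 sample gave 1 to 5 higher, 3 to 11 lower and medians from -0.0522 to -0.0038. Without WT replicate 3 and *Abat* cKO replicate 1 together, which had stood apart in an earlier look at these data, 7 were higher and 11 lower. With the replicate block, 2 members were higher and 6 lower. Same-numbered samples had deviations correlated at -0.29, 0.12 and -0.28. With 3 samples per genotype, these values cannot settle whether the numbers pair samples. Over all tested genes, these alternatives called between 12.1% (the test against 1.2-fold) and 39.4% (protein-coding genes alone). Why the calls shifted between the alternatives was not tested. Without length, by CPM, *Mrpl34* ranked 58 among the tested members and *Mrpl41* ranked 62. Calls at 3 samples per genotype were limited to log2 changes well above the median standard error of 0.056.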
